A study of Mus musculus with 10 samples.

Results

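Rhag, Rhd, Ank1, Add2, Slc4a1, Kel, Ermap and Icam4 encode proteins of the red cell surface and of the skeleton beneath it. These 8 genes were taken by symbol from a table of 12791 genes, and all 8 were listed there. The table came from bulk RNA sequencing of bone marrow progenitors of C57BL/6 mice, gated by flow cytometry as Lin-, c-Kit+ and Sca-1-. The labels describe 10 libraries in 3 groups. The naive group held 3 libraries from mice without a tumor. The KDR-negative and KDR-positive groups held 4 and 3 libraries from mice carrying GL261, a mouse glioma line, at week 4. Tumor cells were implanted into mice with GFP knocked into Kdr, which encodes a receptor of vascular endothelial growth factor, with some 20000 GFP-positive cells used for RNA. The sources used here do not give the age of the mice, whether the naive mice carried the reporter or whether each library stands for its own mouse, so the p-values below may measure a technical spread.

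The authors' deposited table holds 2 comparisons between groups. It gives no values of single libraries, whose depth and spread are therefore unknown. Its header names neither the groups nor the direction. The comparisons are called the first and the second, in column order. A positive log2 fold change means a higher level in what is here called the numerator group, as against the denominator group. Group levels derived from the mean level and the fold change put the denominators of both comparisons together, with a median absolute deviation of 0.0020 (log2), against 0.051 for the next closest pairing of sides, each pairing taken at the weights that fitted it best. The comparisons are therefore read as sharing 1 denominator group. Genes of the sorted population were present on every side. All 8 of the progenitor genes examined, among them Kit, lay at 46.3 CPM (the unit named in the table's header) or more in the shared denominator group. Kit lay at 38.8 CPM in the first numerator group and 60.3 CPM in the second. Levels differed between the sides, since Flt3 lay at 46.3 CPM in the denominator group, 9.54 CPM in the first numerator group and 41.3 CPM in the second. In the first comparison 3 of the 8 had negative and 5 positive log2 fold changes.

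A red cell keeps its shape because a network of spectrin and short actin filaments is tied to the lipid bilayer. Ankyrin links spectrin to band 3, the anion exchanger, and a complex built on band 3 and the Rh proteins sits above it. At the ends of the actin filaments adducin and dematin form further junctions. Several of these membrane proteins carry blood group antigens. Committed erythroid progenitors begin to transcribe many of the genes before globin takes over the cell's message, and the factors GATA1 and KLF1 act at many of their promoters.

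In the first comparison 6 of the 8 genes were lower in the numerator group by the authors' test (adjusted p under 0.05, called below). These were Ank1, Rhag, Kel, Add2, Rhd and Ermap, and none of the 8 was higher. Their log2 fold changes in the authors' deposited table ran from -1.42 to -0.89, so the derived level in the numerator group was 37.4% to 53.8% of that in the denominator group. Slc4a1 and Icam4 were not called. Over all genes, 3.49% were called lower and 18.8% higher in this comparison, and among the 6594 genes whose mean level lay within the range of the 8 genes 5.19% were called lower. The 8 genes were chosen with earlier results of these data known, so the shares are given for description and no test was made. The median log2 fold change of the 8 genes was -0.97 in the authors' deposited table, against -0.13 over all genes. In bulk samples, fewer cells of a type and less RNA per cell cannot be told apart.

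**Figure D1:**
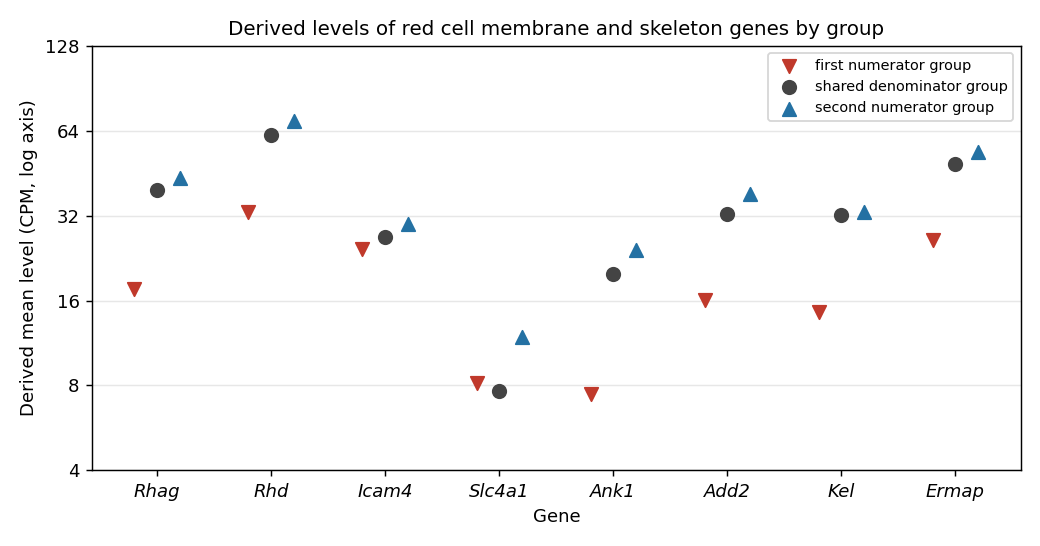
Derived mean level in CPM, on a log axis, of the 8 genes in the first numerator group, the shared denominator group and the second numerator group, 1 point per group with no error since no library values were used. For 7 genes the first numerator group is the lowest point, and for Slc4a1 it lies at 8.15 CPM between 7.64 and 11.9 CPM.

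The genes of both Rh proteins were called lower. Rhag, the Rh-associated glycoprotein that conducts ammonia and is needed for the Rh complex to reach the surface, was derived at 39.5 CPM in the shared denominator group, 17.5 CPM in the first numerator group and 43.6 CPM in the second numerator group. The first numerator group was thus the lowest, and the other two lay close together. The log2 fold change of Rhag in the first comparison of the authors' deposited table was -1.17 (adjusted p = 0.0040). Rhd, the Rh blood group polypeptide and partner of Rhag in the membrane, stood at 62.1, 32.9 and 69.2 CPM in the same groups. Its log2 fold change in the authors' deposited table was -0.92 (adjusted p = 0.020). Both partners of the complex were therefore called in the same direction.

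Icam4, an adhesion protein of the immunoglobulin superfamily that carries the LW antigen and binds integrins of neighbouring cells, sits in the same complex but was not called. Its derived levels were 26.9 CPM in the shared denominator group, 24.3 CPM in the first numerator group and 30.0 CPM in the second. In the authors' deposited table its log2 fold change was -0.15 (adjusted p = 0.913). The 95% interval implied by the authors' p-value, if their statistic was close to normal, runs from -1.01 to 0.72. The fold changes of Rhd and Ermap lie within it, that of Add2 at its edge, and those of Ank1, Rhag and Kel outside. All 6 have errors of their own. The difference between Icam4 and the called genes was not tested. After the median of genes of like level was subtracted its fold change turned to 0.20, while the 6 called genes stayed below 0. On the RefSeq annotation of GRCm38 the nearest gene before Icam4 is Icam1, which stood at 1.31 (log2 fold change, adjusted p = 0.015) in the authors' deposited table.

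Bases before the start site are shown for the Rh genes and Kel, which were called, and for Icam4, which was not, since each holds a GATA motif. The sequences are from RefSeq on GRCm38.p6, where 6 of the 8 genes matched a promoter entry and Ank1 and Slc4a1 did not. Each is the 250 bases before the annotated start, 5′ to 3′ on the gene's strand, with capitals marking the GATA motif on either strand. The letters searched were AGATAA and the close form TGATAA, and the same pair ending in G, which are AGATAG and the close form TGATAG. The windows are chr17:40810899-40811148, plus strand, for Rhag; chr4:134864286-134864535, plus strand, for Rhd; chr6:41704326-41704575, minus strand, for Kel; and chr9:21029182-21029431, plus strand, for Icam4.
Rhag: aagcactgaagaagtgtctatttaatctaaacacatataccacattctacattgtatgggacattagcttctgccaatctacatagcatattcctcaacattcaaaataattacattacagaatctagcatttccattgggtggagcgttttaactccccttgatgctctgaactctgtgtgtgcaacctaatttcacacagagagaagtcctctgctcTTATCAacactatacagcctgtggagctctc
Rhd: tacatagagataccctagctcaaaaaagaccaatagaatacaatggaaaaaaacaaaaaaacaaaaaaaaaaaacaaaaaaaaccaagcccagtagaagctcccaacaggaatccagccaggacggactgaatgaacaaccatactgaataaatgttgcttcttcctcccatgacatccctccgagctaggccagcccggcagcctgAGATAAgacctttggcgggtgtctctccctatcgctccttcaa
Kel: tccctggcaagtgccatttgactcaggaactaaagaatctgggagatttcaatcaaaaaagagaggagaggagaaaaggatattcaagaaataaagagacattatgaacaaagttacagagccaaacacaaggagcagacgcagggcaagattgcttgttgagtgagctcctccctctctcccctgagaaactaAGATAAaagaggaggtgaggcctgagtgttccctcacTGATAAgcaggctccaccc
Icam4: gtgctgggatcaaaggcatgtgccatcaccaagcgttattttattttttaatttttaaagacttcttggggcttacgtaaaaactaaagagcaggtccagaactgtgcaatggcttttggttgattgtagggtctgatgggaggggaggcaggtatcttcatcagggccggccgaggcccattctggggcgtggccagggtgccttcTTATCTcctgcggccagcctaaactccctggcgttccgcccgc
All 6 windows held at least 1 match, 7 in all, where 26.5% of the 32851 windows of the same length in the table did. The match lay 31 to 26 bases before the start in Rhag, 43 to 38 in Rhd and in Icam4, and 67 to 62 in Ermap, and far from the start, at 234 to 229, in Add2. Kel held 2, at 56 to 51 and 19 to 14 bases before the start, and 6.40% of all windows held 2 or more. The called genes with an entry and Icam4 were therefore alike in holding a match. The KLF1-type motif CCNCNCCC, searched on both strands with overlaps counted, was found in 2 of the 6 windows, those of Add2 and Icam4, against 45.9% of all windows. Neither motif overlapped the other in these 6 windows. A match is a run of letters and not a measured binding site.

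Of the link between the bilayer and spectrin, Ank1 was called lower. Ank1, the erythroid ankyrin, had derived levels of 19.9 CPM in the shared denominator group, 7.43 CPM in the first numerator group and 24.3 CPM in the second. Its log2 fold change in the first comparison of the authors' deposited table was -1.42 (adjusted p = 0.027). With the median of genes of like level and length subtracted it was -0.73. RefSeq places the microRNA gene Mir486 and an lncRNA gene within the span of Ank1, and the sources used here do not say whether the counting separated overlapping genes. Slc4a1, which encodes band 3, the partner that ankyrin binds, was not called, and its difference from Ank1 was not tested. It was derived at 7.64 CPM in the shared denominator group, 8.15 CPM in the first numerator group and 11.9 CPM in the second. The authors' deposited table gives it a log2 fold change of 0.09 and a p-value of 1, from which no interval can be derived. With both sides scaled to equal summed CPM, its fold change became -1.40.

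Other parts of that link are given for comparison, chosen as partners of Ank1 and Slc4a1 after their values were seen. The alpha and beta spectrin genes, listed under the older names Spna1 and Spnb1, stood at log2 fold changes of -1.27 for Spna1 (adjusted p = 0.195) and -0.82 for Spnb1 (adjusted p = 0.455) in the authors' deposited table. Epb4.2, whose product binds the anion exchanger and ankyrin, had -1.99 (adjusted p = 0.078) in the authors' deposited table. All 3 had negative fold changes, and none was called. Their derived levels in the shared denominator group were 10.9, 10.4 and 9.66 CPM. Not all red cell membrane genes shared this direction. Of the 30 examined beside the members, these 3 included, 17 had negative and 13 positive log2 fold changes. Epb4.1 stood at 0.30, Mpp1 at 0.27 and Stom at 0.34 in the authors' deposited table (log2 fold changes). Tmod3 stood at -0.01 and Gypc at -0.26 there, and none of these was called. Derived levels in the shared denominator group ran from 37.5 CPM for Tmod3 to 69.3 CPM for Stom.

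Add2, the beta subunit of adducin, which caps actin filaments and recruits spectrin to them, was called lower. It was derived at 32.4 CPM in the shared denominator group, 16.1 CPM in the first numerator group and 38.3 CPM in the second. The log2 fold change in the authors' deposited table was -1.01 (adjusted p = 0.032). The other adducin genes are expressed in many tissues, and neither was called. In the authors' deposited table Add1 stood at 0.17 (adjusted p = 0.767) and Add3 at -0.35 (adjusted p = 0.607), as log2 fold changes. Whether the 3 subunits differ from each other was not tested. Dematin, listed as Epb4.9 and also part of the actin junction, had -1.35 (adjusted p = 0.261) in the authors' deposited table, at 8.17 CPM in the shared denominator group.

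Kel and Ermap carry other blood group antigens. Kel, the Kell metallopeptidase, which can cleave endothelin precursors, was derived at 32.1 CPM in the shared denominator group, 14.5 CPM in the first numerator group and 32.9 CPM in the second. Its log2 fold change in the authors' deposited table was -1.14 (adjusted p = 0.013). Xk, the membrane protein bound to Kell through a disulfide bridge, had -1.06 there with an adjusted p of 0.156 in the authors' deposited table, so the pair had fold changes of like size but only Kel was called. Ermap, a butyrophilin-like protein that carries the Scianna antigens, was derived at 48.7 CPM in the shared denominator group, 26.2 CPM in the first numerator group and 53.7 CPM in the second. The authors' deposited table gives it a log2 fold change of -0.89 (adjusted p = 0.030).

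The 6 called genes could not be ranked by the size of their change. Their log2 fold changes spanned 0.52, while the standard errors implied by the authors' p-values ran from 0.32 for Rhd to 0.51 for Ank1. Rhag alone passed 0.01 in the authors' deposited table. At a log2 fold change of at least 1 in size, Ank1, Rhag, Kel and Add2 remained.

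**Figure D2:**
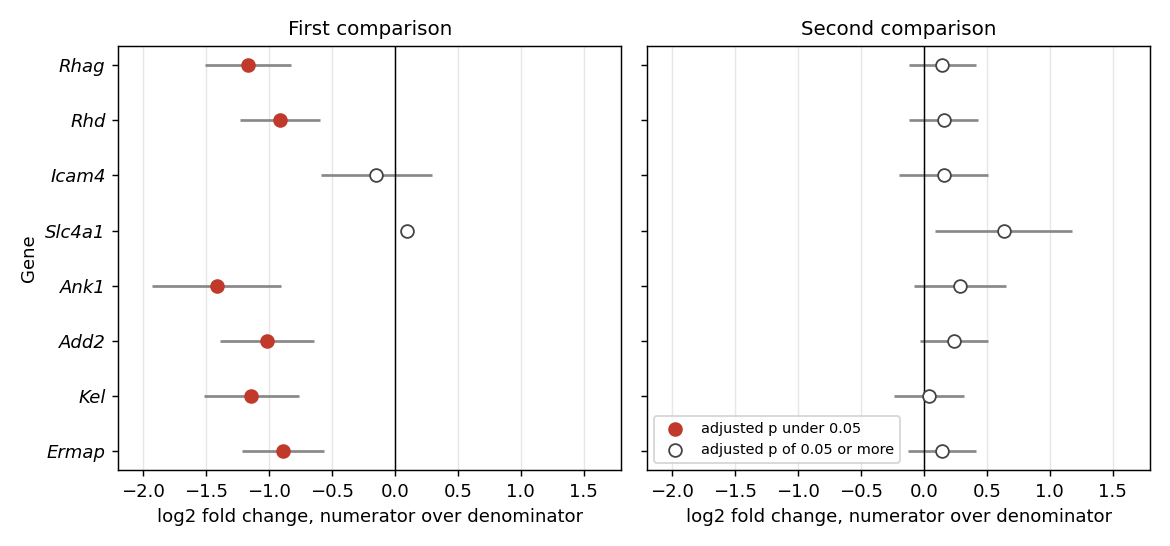
The log2 fold changes of the authors' deposited table for the 8 genes, numerator over denominator, in the first (left) and second (right) comparison; bars are 1 standard error implied by the authors' p-value, and Slc4a1 has none in the first comparison, where its p was 1. On the left 6 filled points lie between -1.42 and -0.89, and on the right all 8 open points lie between 0.04 and 0.63.

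In the second comparison none of the 8 genes was called, and none had an unadjusted p under 0.05 in the authors' deposited table. Over all genes 0.109% were called in either direction, 14 of 12791, and 43 had an unadjusted p under 0.05. All 8 log2 fold changes of the authors' deposited table were above 0, where 50.4% of all genes were. They ran from 0.04 for Kel to 0.63 for Slc4a1, with a median of 0.16 against 0.00 over all genes. Slc4a1 had the smallest p-value of the 8 in the authors' deposited table, 0.244 before adjustment. The intervals implied by the authors' p-values included 0 for every one of the 8 genes. For Rhag the interval ran from -0.38 to 0.66 and for Kel from -0.51 to 0.59, so differences of these sizes in either direction lie within the precision of the authors' test. Since both comparisons share the denominator group, their fold changes are not independent of each other.

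Set side by side, the derived levels of the 8 genes were 1.23 to 3.26 times as high in the second numerator group as in the first. The ratio was highest for Ank1 and lowest for Icam4. The authors' table holds no comparison of these groups, and the ratio carries no test.

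Other genes of the red cell surface and skeleton did not move one way. Of 30 further genes, all matched in the table, 3 were called lower and 4 higher in the first comparison, and 23 were not called. Over all genes 3.49% were called lower and 18.8% higher. The median log2 fold change of the 30 genes was -0.18, against -0.13 over all genes. The lower ones in the authors' deposited table included Atp2b4, a calcium pump of the plasma membrane, at -1.53 (adjusted p = 0.00069), and Fam38a, an older name of the stretch-activated channel gene Piezo1, at -1.02 (adjusted p = 0.027). The higher ones in the authors' deposited table were Slc14a1, the urea transporter with the Kidd antigens, at 1.82, Bsg, basigin, at 1.60, Cd59a, a complement inhibitor, at 1.22 and Cd47, which signals to phagocytes, at 0.90. Of these Bsg and Cd47 are made by most cell types. Bsg and Cd47 lay at mean levels of 7.45 and 6.70 log2 CPM. There the median log2 fold change over all genes was 1.51 and 0.77, close to their own. Slc14a1 lay at 6.42 and Cd59a at 4.33 log2 CPM, where that median was 0.77 and -0.31. For the genes called lower as for those called higher, the cells concerned cannot be told in bulk samples. In the second comparison none of the 30 was called, and none had an unadjusted p under 0.05.

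Erythroid program genes were mixed. Of 27 measured transcription factor, receptor, heme and iron genes, 9 were called higher, none was called lower and 18 were not called in the first comparison, where 18.8% of all genes were called higher. Their median log2 fold change was 0.26, and 11 of the 27 lay below 0. Those called in the authors' deposited table included Trf, transferrin, at 3.17, Alas2, the first enzyme of heme synthesis in erythroid cells, at 2.97, Blvrb at 1.74, the transcription cofactors Zfpm1 at 1.37 and Lmo2 at 1.36, the carbonic anhydrases Car2 at 1.37 and Car1 at 1.16, and the transcription factor Nfe2 at 0.74. Nfe2 and Zfpm1 lay at mean levels of 6.61 and 6.47 log2 CPM, where the median log2 fold change over all genes was 0.77. Lmo2, Car2 and Blvrb lay at 7 to 8 log2 CPM, where that median was 1.51. Gata1 at 0.33 (adjusted p = 0.532) and Klf1 at -0.34 (adjusted p = 0.627) in the authors' deposited table, named because their motifs were searched, were not called. The 4 globin genes of the table were all called higher, with log2 fold changes in the authors' deposited table of 3.33 (Hbb-b1), 3.71 (Hba-a2), 3.97 (Hba-a1) and 4.89 (Hbb-b2). Their near-identical copies make the split between single globin genes uncertain. In the second comparison no erythroid program or globin gene was called or had an unadjusted p under 0.05.

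Genes of other cell types moved with the first comparison too. All 14 macrophage markers were called higher, with a median log2 fold change of 5.0, and their summed derived level was 198 CPM in the shared denominator group, 4904 CPM in the first numerator group and 88.2 CPM in the second. C1qa, C1qc and C1qb, the chains of complement C1q, had the smallest p-values of the 14, with log2 fold changes of 5.0, 5.07 and 5.0 in the authors' deposited table. In the second comparison C1qa, at -2.41 (adjusted p = 0.020) in the authors' deposited table, was the only one of the 14 called. All 12 megakaryocyte markers were called higher, with a median of 2.93 and sums of 273, 2218 and 204 CPM, and the smallest p-values belonged to Pf4, Treml1 and Cd9, with 3.43, 3.16 and 3.16 in the authors' deposited table. Among the 8 progenitor genes 2 were called higher and 1 lower, Elane at 2.37, Mpo at 2.40 and Flt3 at -2.28 in the authors' deposited table. Derived levels cannot be 0 by the way they are computed, and the lowest of these markers was 0.22 CPM, in the second numerator group. The globins summed to 1537, 29125 and 1579 CPM. The part of these other genes in the lower values of the 6 called genes was not tested.

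**Figure D3:**
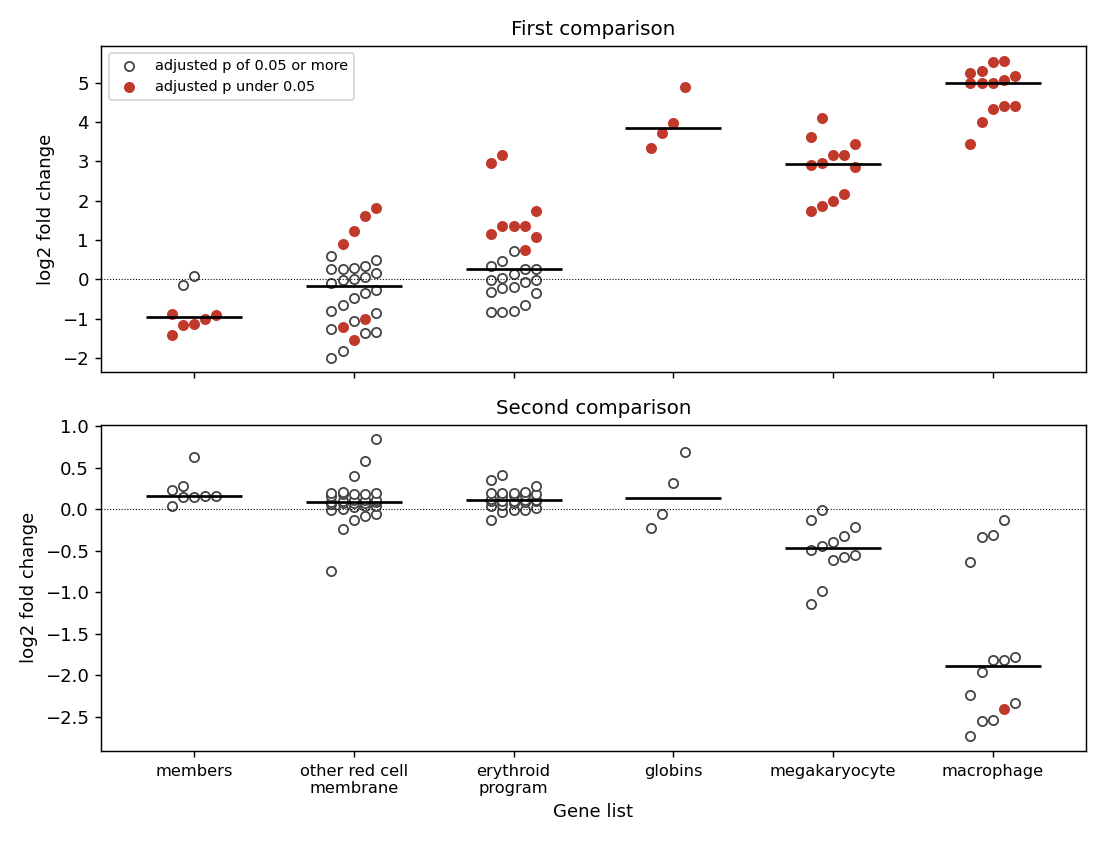
The log2 fold changes of the authors' deposited table for single genes of the 8 members, the other red cell membrane genes, the erythroid program, the globins, and megakaryocyte and macrophage markers, with a line at each median; filled points passed 0.05 on the adjusted p. In the top panel, for the first comparison, the members' median is -0.97 and that of the globins 3.84, and in the bottom panel, for the second, they are 0.16 and 0.13.

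Fold changes in the first comparison depended on the level of the gene. The median log2 fold change over all genes was -0.54 at a mean level of 3 to 4 log2 CPM, -0.31 at 4 to 5, 0.13 at 5 to 6 and 0.77 at 6 to 7. The 6 called genes lay at mean levels from 3.80 to 5.59 log2 CPM in the authors' deposited table, below the median of their level. Against the median of the 200 genes closest in derived denominator level, their log2 fold changes ran from -1.34 for Rhd to -0.81 for Add2. Transcript length moved with the fold change as well, and Ank1 and Add2 have the longest annotated transcripts of the 8, at 8366 and 8182 bases. With the 200 genes closest in level and length as the reference, an alternative chosen after the data had been seen, Ank1 stood at -0.73 and Add2 at -0.54, while Rhd stood at -1.39 and Rhag at -1.25. Summed over genes, the derived level of the numerator group exceeded that of the denominator group by 1.49 on the log2 scale, and with equal sums all 8 fold changes were negative, from -2.91 for Ank1 to -1.40 for Slc4a1. Fold changes of the other lists are given as deposited, with no adjustment for level, length or summed CPM.

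**Figure D4:**
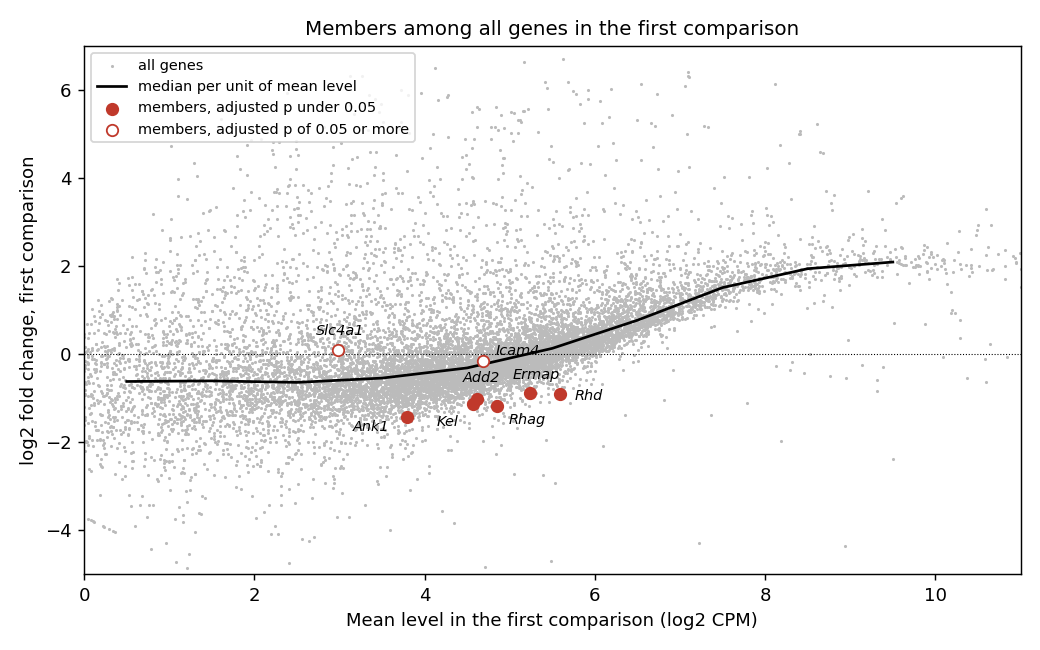
Mean level in log2 CPM (x axis) and log2 fold change (y axis) of the genes in the first comparison of the authors' deposited table, with the 8 members in red and the median per unit of level as a black line; the axes leave out the most extreme genes. The 6 filled members lie below the line, Icam4 at -0.15 lies close to it and Slc4a1 at 0.09 lies above it.

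The genes closest to the members' median in both fold changes and both mean levels, by Euclidean distance over these 4 values of the 2 comparisons, were Mtr, Fam38a, Rps6ka3, Tbl1x and Polr1a. Their log2 fold changes in the first comparison of the authors' deposited table lay between -1.07 for Tbl1x and -0.88 for Polr1a, and those in the second between 0.08 for Rps6ka3 and 0.12 for Polr1a. Mtr encodes methionine synthase and Polr1a the largest subunit of RNA polymerase I. Only Fam38a of the 5 was on the list of red cell membrane genes.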

How the data were processed

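Per the labels' protocols, an Illumina TruSeq RNA kit was used on RNA of sorted progenitors. Bowtie 0.12.2 and the build mm8 stand in the submitters' processing notes with no role. The sources used here do not say how reads were counted, on which annotation, or how genes were tested. Per the file headers, the table deposited by the authors holds, for 2 comparisons, a log fold change and a mean log CPM, read as log2 values. The p-values deposited by the authors come with adjusted values that equal the Benjamini-Hochberg adjustment over all 12791 genes.

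The authors' p-values were used as they stand, since the table has no value per library. Levels of single groups were derived by taking the mean CPM as a weighted mean of both sides, with the weights that best matched the denominators over 9044 genes (0.48 and 0.59 for the numerators). The sources used here do not say whether CPM were scaled to transcript length, so levels were not compared between genes except to describe where a gene lies among genes of like level. Implied standard errors are the fold change divided by the normal deviate of the authors' two-sided p-value. Lengths are the longest GENCODE M21 transcript per gene, for 98.8% of genes. Older gene names were matched through RefSeq synonyms. The weight fit and the adjustment were checked on simulated data. Python 3.11.15 with pandas 2.3.3 and scipy 1.17.1 was used.

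The members and lists were chosen with earlier results of these data known. Named genes are the 8 members, every gene of the membrane and erythroid lists that was called, the globins, the 3 markers with the smallest p per cell type list, and the 5 nearest genes, with predicted genes and clone names left out. Spna1, Spnb1, Epb4.1, Epb4.2, Epb4.9, Gypc, Add1, Add3, Xk, Gata1, Klf1, Tspo2, Icam1, Kit, Snora30 and Mir20a were named after their values were seen. So were Mpp1, Stom and Tmod3. Some called genes of the lists are not reported here by name.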

Additional observations from a re-analysis of the deposited data

How the results depend on the processing

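With the threshold on the authors' adjusted p at 0.01, the count of members called in the first comparison fell from 6 to 1, Rhag, and that of the other red cell membrane genes from 7 to 4. Under the other alternatives (adjusted p under 0.1, unadjusted p under 0.05, a log2 fold change of at least 1 in size, and adjustment over genes with a mean of at least 4 log2 CPM) the members' count lay between 4 and 6, all lower. The last setting leaves out Ank1 and Slc4a1 by their level. Counts of the erythroid program list lay between 8 and 13, against 9. None of its genes was lower at the main threshold, but 2 were at an adjusted p under 0.1, 3 at an unadjusted p under 0.05 and 1 when adjusted over genes of at least 4 log2 CPM. All counts of the second comparison stayed at 0. Among 16 member fold changes, 1 reversed with equal summed CPM (Slc4a1, first comparison, -1.40) and 1 with the median of genes of like level subtracted (Icam4, first comparison, 0.20). None reversed with the table's median subtracted or with level and length accounted for. P-values could not be recomputed under these scalings. With equal weights of both sides the median derived level of the members in the first numerator group was 17.0 CPM, against 16.8. No paired analysis was possible because the table has no value per library, and for the same reason no library was left out in turn. Depth per library is unknown, so limits for low genes such as Slc4a1 cannot be given.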

Other observations

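Transcript length and the first comparison's fold changes were related across all genes of middle level. Among genes at a mean of 4 to 6 log2 CPM, the median log2 fold change was 0.25 for the 201 genes whose longest transcript is under 1000 bases, 0.01 for the 1110 genes of 2000 to 3000 bases and -0.38 for the 585 genes of 6000 bases or more. The share called lower was 3.06% at 2000 to 3000 bases, where the transcripts of Rhag and Kel fall, and 7.35% at 6000 bases or more, where those of Ank1 and Add2 fall. It was 16.9% under 1000 bases. Genes of small RNAs at this mean level were among those called lower, such as Snora30 at -9.30 and Mir20a at -8.53 in the authors' deposited table (log2 fold changes). They were not set apart from other genes, so this share is not read as an effect of length.

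Alas2 and the globins, whose messages accumulate late in red cell maturation, were called higher in the same group in which Ank1, Rhag, Rhd, Kel, Ermap and Add2 were called lower. Alas2 was derived at 7.32 CPM in the shared denominator group and 57.2 CPM in the first numerator group, while Rhag was derived at 39.5 and 17.5 CPM. Slc4a1, also transcribed mainly late, had 7.64 and 8.15 CPM. Some other erythroid genes did not follow Alas2. Epb4.2 at -1.99, Epb4.9 at -1.35 and Tspo2 at -0.82 in the authors' deposited table had negative log2 fold changes, and none was called. Of the 27 erythroid program genes 11 were negative and 16 positive. The genes set side by side here were picked after their values were seen, and a split by stage of maturation was not tested.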
